A study of Homo sapiens with 6 samples.

Results

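The tubby family is a group of 5 human genes, TUB, TULP1, TULP2, TULP3 and TULP4, here described across 6 clonal HEK293 lines. The 5 rows were taken by gene symbol out of 58395 genes counted. HEK293 is an established human cell line of embryonic kidney origin. Of the 6 lines, 3 (GST lines 2, 8 and 9) expressed glutathione S-transferase with the tag written 3F in the labels, and 3 (NOCT lines 4, 11 and 12) expressed NOCT Δ(2-15)-3F, nocturnin without residues 2 to 15 and with the same tag. All 6 lines thus carried a tagged transgene, and none was an untransfected parent. Each line was 1 clone and gave 1 strand-specific, ribosomal RNA-depleted library after 3 days of growth. The question is which RNAs change in level when this form of nocturnin, rather than the control protein, is expressed. The family was chosen by the edgeR result for TUB in this same comparison: TUB was among the 10 of 17261 genes (0.0579%) with an adjusted p under 0.05, 4 of them higher (0.0232%) and 6 lower (0.0348%) in the NOCT lines. The values of TUB between the groups are therefore given as a description, with no test, and nothing is read from its place among those genes. The other 4 genes came in by family name.

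Tubby-like proteins share a carboxy-terminal tubby domain that binds phosphoinositides, above all phosphatidylinositol 4,5-bisphosphate, at the plasma membrane. TUB, the founding gene, is known from the tubby mouse, in which its loss leads to adult obesity with degeneration of the retina and cochlea, and receptors that act through Gq and phospholipase C can release the protein from the membrane. TULP3 links the domain to the IFT-A complex and so carries receptors and lipidated proteins into the primary cilium, where it restrains hedgehog signalling. TULP1 is a photoreceptor protein whose mutation causes inherited retinal degeneration, TULP2 is a gene of the testis, and TULP4 is a larger, more distant member with WD40 repeats and a SOCS box.

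The libraries had 19729745 to 24422406 gene counts. The GST construct had 46 to 88 counts in the GST lines and 0 or 1 in the NOCT lines, and the NOCT construct had 46 to 82 counts in the NOCT lines and 3 to 7 in the GST lines, so each library held the construct its label names. No 2 libraries agreed within sampling noise (chi-square per degree of freedom 8.53 to 50.96 over the 15 pairs). NOCT line 12 stood apart from its group: by this measure it was nearer to GST lines 8 and 9 (22.35 and 21.06) than to NOCT lines 4 and 11 (49.73 and 33.75), which were near each other (18.91). Without NOCT line 12, the log2 fold change was -1.02 for TUB, 0.27 for TULP4 and 0.03 for TULP3. Of 6 genes listed as HEK293 markers, 5 had enough counts for the test, and their summed level was 883 to 1196 CPM (counts scaled to library size with TMM factors) in GST lines and 1031 to 1869 in NOCT lines. PAX2, a kidney lineage transcription factor on that list, was at 5.69, 3.85 and 4.71 CPM in GST lines 2, 8 and 9 and at 0.746, 1.30 and 1.20 CPM in NOCT lines 4, 11 and 12. The groups did not overlap in PAX2, as in 20.0% of all genes in either direction (log2 fold change -2.13, edgeR adjusted p 0.0567, DESeq2 adjusted p 1.2e-06). KRT8, a keratin on the same list, stood the other way, with 80.0, 90.5 and 86.8 CPM in the GST lines and 252, 192 and 111 CPM in the NOCT lines (log2 fold change 1.11, edgeR adjusted p 0.159, DESeq2 adjusted p 0.0012). KRT18, its partner keratin, was also apart and higher (0.63, edgeR adjusted p 0.224), VIM was at 0.51 and NEFL at -0.10 with groups that overlapped, and the part of these genes in the results on the family was not tested. Markers of blood cells and hepatocytes summed to at most 0.738 CPM in any line, and those of photoreceptors and male germ cells, where TULP1 and TULP2 are known to act, to at most 0.432 CPM. Hypothalamic neuron markers, for a tissue in which TUB is known to act, summed to 1.21 to 3.45 CPM, most of it in the 1 gene tested, NPY. Fibroblast markers summed to 7.42 to 24.5 CPM over the 6 lines, nearly all of it COL1A1, with COL1A2 at 0 counts throughout. With spike-in totals as library sizes, 14 genes were called higher and 8 lower. The number called varied with the line left out: it was 5 without GST line 2, 6 without GST line 8 and 0 without GST line 9 (1488 with an unadjusted p under 0.05). It was 13 without NOCT line 4, 1 without NOCT line 11 and 970 without NOCT line 12.

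TUB (ENSG00000166402) spans 8019244 to 8106112 on the plus strand of chromosome 11 in GRCh38, a span of 86869 bases with 6722 exonic bases. Its RNA can begin at several places, and RefSeq lists 3 starts for it. A read count for the whole gene adds up the RNAs from all of them. The 3 promoter windows, each from 250 bases before a start to 50 after it, are shown because TUB is the member whose level differed most between the groups. Capitals mark matches to the X-box, the site read by RFX factors in many ciliary gene promoters, searched on both strands as GTTNCC, then 2 free bases, then GGNAAC, with at most 2 of the 10 fixed letters differing. RefSeq promoters of GRCh38.p14 were matched by symbol for 3 of the 5 members (TUB, TULP1 and TULP3).
TUB start 1, chr11:8018995-8019294, plus strand: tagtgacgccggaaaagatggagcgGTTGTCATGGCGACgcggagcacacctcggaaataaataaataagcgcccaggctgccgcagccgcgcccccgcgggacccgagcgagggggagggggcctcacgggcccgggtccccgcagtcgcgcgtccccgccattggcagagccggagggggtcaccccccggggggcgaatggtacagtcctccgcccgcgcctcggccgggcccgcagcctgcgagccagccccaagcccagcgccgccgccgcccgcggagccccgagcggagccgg
TUB start 2, chr11:8038383-8038682, plus strand: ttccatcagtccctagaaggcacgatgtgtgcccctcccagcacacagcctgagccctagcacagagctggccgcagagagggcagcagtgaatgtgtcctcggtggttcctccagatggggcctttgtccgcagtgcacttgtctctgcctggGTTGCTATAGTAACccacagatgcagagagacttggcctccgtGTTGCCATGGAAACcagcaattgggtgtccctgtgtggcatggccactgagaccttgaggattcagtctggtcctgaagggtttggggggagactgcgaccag
TUB start 3, chr11:8080961-8081260, plus strand: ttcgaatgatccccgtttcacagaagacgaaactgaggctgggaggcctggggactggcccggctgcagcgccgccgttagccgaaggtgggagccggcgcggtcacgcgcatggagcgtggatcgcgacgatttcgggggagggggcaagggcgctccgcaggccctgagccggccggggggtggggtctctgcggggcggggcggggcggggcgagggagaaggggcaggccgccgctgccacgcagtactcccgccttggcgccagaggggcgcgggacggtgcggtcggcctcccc
The first TUB window held 1 such match, at -225 to -212 from the start, with 2 differing letters. The second held 2 matches, one of them, at -53 to -40, without a differing letter. The third held none, and the single windows of TULP1 and TULP3 held none either. Among all 35116 promoter windows of the same length, 14.5% had a match with at most 2 differing letters and 0.490% had one without any. The 3 TUB windows also differed in composition: the first and the third were 75% and 74.3% G and C, with 41 and 37 CG pairs, and the second was 58.3% G and C with 6 CG pairs. A second motif, the GC-box GGGCGG searched on both strands, occurred in the first and the third window of TUB and in that of TULP3, overlapped no X-box match, and occurred in 45.0% of all windows. The E-box CACGTG, a site read by the clock factors that drive the NOCT gene, was in none of these 5 windows and in 7.26% of all windows. The motifs were chosen after these sequences had been read, a match is only a match of letters, and the counts do not say which of the 3 starts was used.

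TUB was the member that stood lower in the NOCT lines. Its counts were 1061, 1197 and 1144 in GST lines 2, 8 and 9 and 722, 601 and 581 in NOCT lines 4, 11 and 12. Scaled to library size, this was 55.9, 55.5 and 56.2 CPM in the GST lines. The NOCT lines had 28.3, 26.9 and 29.1 CPM. The groups did not overlap, the 3 GST lines lay within 1 CPM of each other, and each NOCT line had close to 50% of the GST level. The means were 55.9 ± 0.33 CPM and 28.1 ± 1.12 CPM (SD, n = 3 lines each). The log2 fold change of TUB was -0.99 (standard error 0.0914), or 1.99 times as much TUB RNA in the GST lines. Groups without overlap were found in 20.0% of the 17261 genes, 9.54% with the NOCT lines lower. In bulk RNA, fewer cells that express TUB and less TUB RNA in each cell cannot be told apart. With 1 library per clone, differences between clones and those due to the transgene are separated only by the 3 clones on each side.

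The lines of a group were close to each other in TUB. TUB was chosen by a test that favours genes with a small spread within groups, so its spread is a description and nothing is read from it about variation between clones. Counting alone, at 1061 to 1197 reads, gives a coefficient of variation of 2.97% for a GST line, and the 3 GST lines varied by 0.597%, less than counting error. In the NOCT lines, counting gives 3.98% and the lines varied by 3.98%. For TULP3 and TULP4, which came in by name, the variance was 17.6 and 22.5 times that of counting in the GST lines and 2.98 and 3.55 times in the NOCT lines. The same ratio for TUB was 0.0419 in the GST lines and 0.953 in the NOCT lines. Among genes of like level, 55.3% had a smaller spread within groups than TULP3, and 37.5% a smaller one than TULP4.

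**Figure D1:**
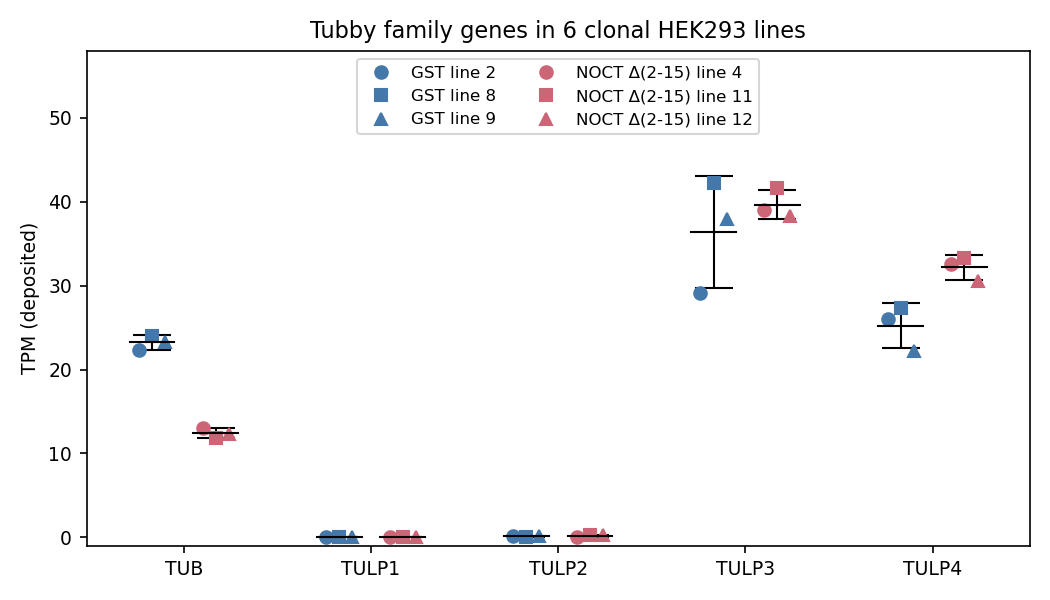
TPM of the 5 tubby family genes in each of the 6 lines (points: single lines, shape and colour give the line; bars: mean and SD of 3 lines). The TUB points of the NOCT lines lie at 11.9 to 13.1 TPM, below the 22.4 to 24.1 TPM of the GST lines, those of TULP4 lie above, and TULP1 and TULP2 lie at the bottom of the axis in every line.

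TULP4 stood the other way. It (ENSG00000130338; chromosome 6, 158232236 to 158511828, plus strand, 12285 exonic bases) had 119, 115 and 98.2 CPM in GST lines 2, 8 and 9. NOCT lines 4, 11 and 12 had 129, 138 and 133 CPM. Each NOCT line was above each GST line, GST line 9 being the lowest of all. The means were 111 ± 11.1 and 133 ± 4.48 CPM (SD over 3 lines), and the log2 fold change of TULP4 was 0.26 (standard error 0.0994). The gene did not pass over all genes (edgeR adjusted p 0.292, 0.114 to 0.674 over 17 alternatives; unadjusted 0.0282, and an unadjusted p under 0.05 with the NOCT lines higher was found for 7.38% of genes). Groups apart with the NOCT lines higher were found in 10.5% of genes. Without GST line 9, the log2 fold change was 0.18.

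The low value of GST line 9 was shared by the region. Over the 11 genes within 1 Mb of TULP4 that averaged 1 CPM or more, the median deviation from the mean of the 6 lines was -0.22 (log2) in GST line 9, where TULP4 was at -0.30. In the other 5 lines that median was 0.0087 to 0.0887. The median over all of chromosome 6 was also lowest in GST line 9, at -0.13. With the level of up to 50 neighbours on each side removed, a wider stretch than the 1 Mb region, TULP4 stood at 0.22 (log2, edgeR adjusted p 0.206). The part of the region's own level in the TULP4 difference was not tested.

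TULP3, the member that serves the primary cilium, had no shift that passed the test. TULP3 (ENSG00000078246; chromosome 12, 2877223 to 2941140, plus strand, 3181 exonic bases) had 34.5, 46.1 and 43.4 CPM in GST lines 2, 8 and 9 and 40.1, 44.7 and 43.0 CPM in NOCT lines 4, 11 and 12. The 3 NOCT lines lay inside the range of the GST lines, GST line 2 being the lowest and GST line 8 the highest. The means were 41.3 ± 6.07 and 42.6 ± 2.30 CPM (SD over 3 lines), and the log2 fold change of TULP3 was 0.04 (standard error 0.128, edgeR adjusted p 0.906, 0.421 to 0.998 over 17 alternatives). Its sign rested on GST line 2, and without that line the log2 fold change was -0.07. TULP3 shares 60 exonic bases with RHNO1, a DNA replication stress gene on the same strand, and reads there could not be assigned to either gene. RHNO1 had 53.6, 46.4 and 50.4 CPM in GST lines 2, 8 and 9 and 70.4, 63.3 and 59.4 CPM in NOCT lines 4, 11 and 12. Its groups were apart, at a log2 fold change of 0.36 in NOCT over GST (edgeR adjusted p 0.212), beside 10.5% of all genes with groups apart and NOCT lines higher. The difference between RHNO1 and TULP3 was not tested.

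TULP1 and TULP2 were at the limit of detection. TULP1 (ENSG00000112041; chromosome 6, 35497874 to 35512938, minus strand) had 0, 0 and 1 counts in GST lines 2, 8 and 9 and 1, 0 and 1 in NOCT lines 4, 11 and 12. A count of 0 allows up to 3 counts, which is 0.134 to 0.158 CPM in the 3 libraries concerned (counting error only). TULP2 (ENSG00000104804; chromosome 19, 48880965 to 48898733, minus strand) had 3, 0 and 2 counts in the GST lines and 1, 5 and 4 in the NOCT lines. Neither gene had enough counts for the test, and no fold change is given. A difference between the groups was not detectable at this depth in either gene. The genes around TULP2 were measured well: of 69 tested within 1 Mb, 55 were higher and 14 lower in NOCT lines, with a median log2 fold change of 0.26, beside 49.3% lower and a median of 0.0046 over all genes. By edgeR 0 of the 69 passed, with 21 at an unadjusted p under 0.05, beside 13.9% of all genes. The median was 0.16 without NOCT line 4. The median deviation there was 0.35 and 0.16 in NOCT lines 4 and 11, -0.0988 in NOCT line 12, and -0.16 to -0.0612 in the GST lines, so NOCT line 12 lay among the GST lines. Chromosome 19 as a whole had medians of 0.22, 0.0851 and -0.14 in NOCT lines 4, 11 and 12 and of -0.0541 to -0.00338 in the GST lines.

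Levels of different genes can be compared per length, in the deposited TPM values. In the GST lines the order was TULP3 (36.4 ± 6.66 TPM, SD, n = 3), TULP4 (25.2 ± 2.67), TUB (23.2 ± 0.84), TULP2 (0.104 ± 0.0962) and TULP1 (0.0154 ± 0.0266). TUB, at 22.4 to 24.1 TPM, lay within the range of TULP4, 22.2 to 27.4 TPM, so this pair of neighbours did not differ beyond its spread. In the NOCT lines the order was the same, with TULP3 at 39.7 ± 1.78, TULP4 at 32.2 ± 1.43 and TUB at 12.4 ± 0.60 TPM, and the lines of these 3 genes did not overlap.

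A ratio of 2 genes within a library does not depend on how libraries are scaled. TUB had 0.859, 0.879 and 1.05 times the TPM of TULP4 in GST lines 2, 8 and 9. Its ratio was 0.401, 0.357 and 0.402 in NOCT lines 4, 11 and 12. Against TULP3, TUB had 0.768, 0.5699 and 0.613 times the TPM in the GST lines and 0.334, 0.285 and 0.321 times in the NOCT lines. The groups were apart in both ratios, and these are descriptions, since TUB was chosen for this contrast. The log2 ratio of TULP3 to TULP4 counts, which does not use TUB, was -1.43 ± 0.32 over the GST lines and -1.65 ± 0.0347 over the NOCT lines (SD of 3). The groups overlapped (two-sided exact permutation test, p = 0.4, where 0.1 is the smallest possible). Single lines moved this difference of -0.22: without GST line 2 it was -0.39 with the groups apart (p = 0.1 by the same permutation test), and without GST line 9 it was -0.0906.

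TUB made up a smaller share of the family's RNA in the NOCT lines, while the family's sum was close in both groups. The summed TPM of the 5 genes was 85.0 ± 8.03 over the GST lines and 84.5 ± 2.92 over the NOCT lines (SD of 3). Of it, TUB took 28.8%, 25.7% and 27.8% in GST lines 2, 8 and 9 and 15.4%, 13.6% and 15.1% in NOCT lines 4, 11 and 12. The share of TULP4 was 29.8 ± 3.48% in GST lines and 38.1 ± 0.46% in NOCT lines, and that of TULP3 42.6 ± 4.48% and 47.0 ± 0.86%. All shares have the same denominator, so a lower share of TUB raises those of the others. Nothing is read from them about TULP3 or TULP4.

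**Figure D2:**
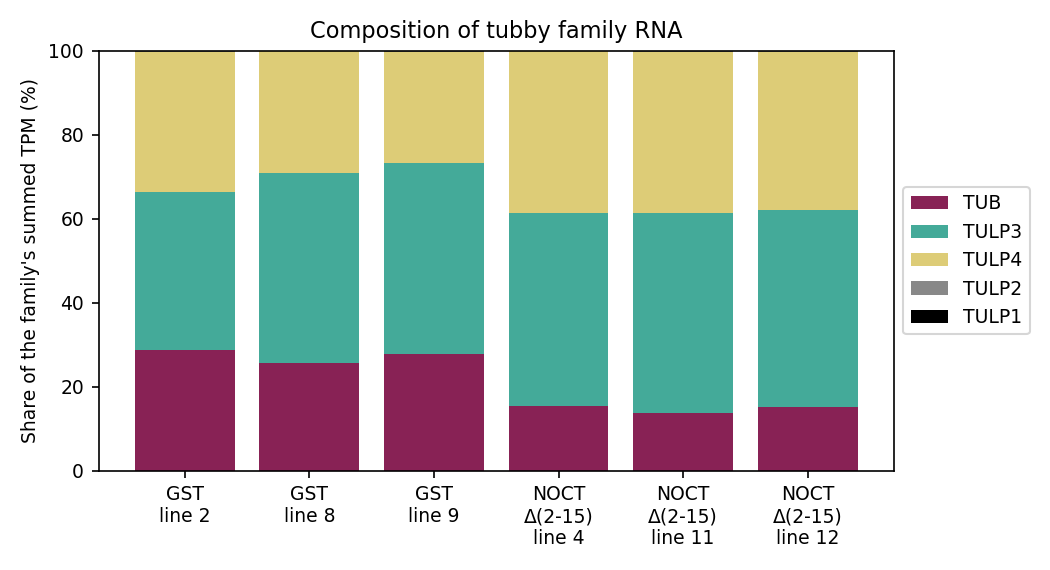
Stacked bars show the share of each tubby family gene in the summed TPM of the family (%), 1 bar per line. TUB takes 25.7% to 28.8% in GST lines and 13.6% to 15.4% in NOCT lines, and TULP1 and TULP2 are too low to be seen.

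The 3 members with enough counts were followed through 18 fits. The log2 fold change of TUB ran from -1.02 to -0.84, that of TULP4 from 0.18 to 0.41, and that of TULP3 from -0.07 to 0.19. When libraries were scaled by spike-in totals, the median of all genes moved from 0.0046 to 0.15, and TUB, at -0.84, was then -0.995 relative to that median. The authors' deposited table, made with DESeq2, called 2.09% of its genes, and in it the shrunken log2 fold change was -0.93 for TUB, 0.03 for TULP3 and 0.24 for TULP4. In the authors' deposited table the adjusted p was 0.964 for TULP3 and 0.336 for TULP4, and TULP2 had none.

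**Figure D3:**
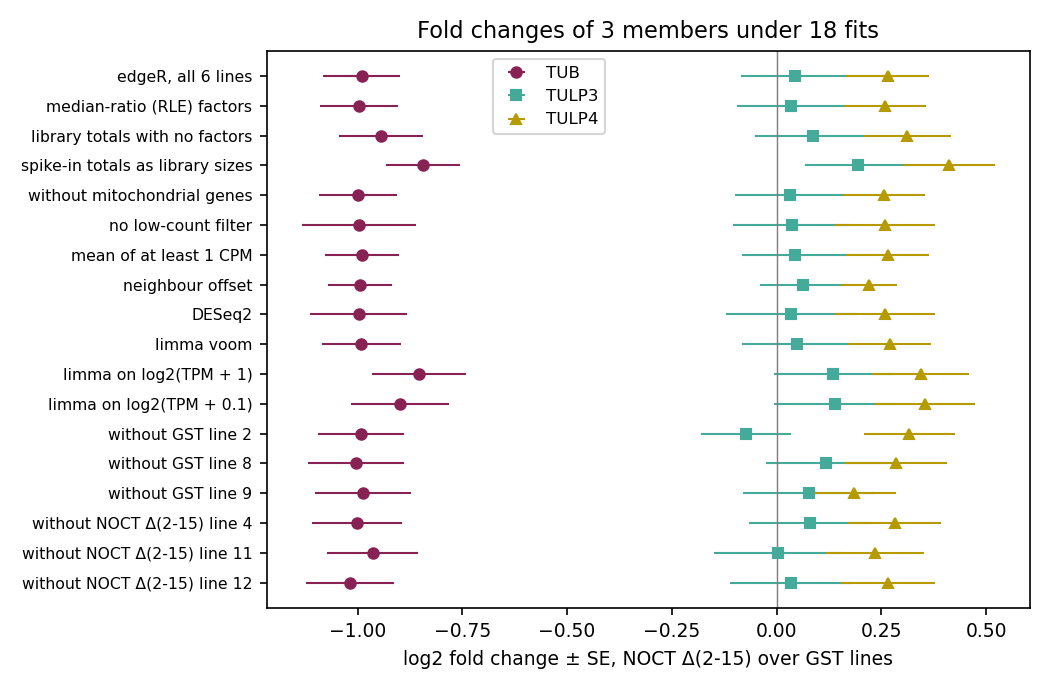
Log2 fold change with its standard error (x axis, NOCT over GST lines) of TUB, TULP3 and TULP4 in 18 fits (y axis). TUB stays between -1.02 and -0.84 in every fit, TULP4 between 0.18 and 0.41, and TULP3 lies near 0.

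Clonal HEK293 lines can differ in the copy number of chromosome segments, so the genes around TUB were read in the same way. Within 1 Mb of TUB, 18 other genes were tested. Their median log2 fold change was -0.09, with 12 lower and 6 higher, and 0 passed in edgeR (0 with an unadjusted p under 0.05). Over all genes tested, the median was 0.0046 and 49.3% were lower. Over the 15 genes of the window that averaged 1 CPM or more, the median deviation was 0.17, -0.0735 and 0.0371 in GST lines 2, 8 and 9. In NOCT lines 4, 11 and 12 it was -0.0785, -0.12 and 0.0620. These ranges overlapped, while TUB was at 0.4958, 0.48 and 0.50 in the GST lines and at -0.48, -0.56 and -0.44 in the NOCT lines. With the level of up to 50 neighbours on each side removed, a wider stretch than the 1 Mb window, TUB had a log2 fold change of -0.99. A level shared only within the window was not fitted on its own. Copy number itself was not measured, and its part in the TUB difference was not tested.

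The tested gene next to TUB on each side had another pattern. EIF3F, a translation initiation factor subunit upstream of TUB (7970251 to 8001862), stood at -0.06 on the log2 scale (edgeR adjusted p 0.81). RIC3, a chaperone of acetylcholine receptors, lies on the opposite strand (8106093 to 8169055), and its 3′ end shares 20 exonic bases with that of TUB. The counts of RIC3 were 79, 15 and 36 in GST lines 2, 8 and 9 and 141, 114 and 7 in NOCT lines 4, 11 and 12. It was lowest in a NOCT line and highest in another, so the groups overlapped, at a log2 fold change of 0.75 (standard error 0.867, edgeR adjusted p 0.738). TUB-AS1, annotated in an intron of TUB, had 0 to 4 counts in a line. LMO1, beyond RIC3 and within 0.5 Mb of TUB, had 0.685, 0.881 and 0.835 CPM in GST lines 2, 8 and 9. NOCT lines 4, 11 and 12 had 0.667, 0.314 and 0.301 CPM of LMO1, which had 6 to 19 counts in a line. Its groups were apart, at a log2 fold change of -0.87 (standard error 0.411, edgeR adjusted p 0.393), beside 9.54% of all genes with NOCT lines lower. Within 0.5 Mb of TUB, 4 of the 5 genes tested were lower and 1 was higher.

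**Figure D4:**
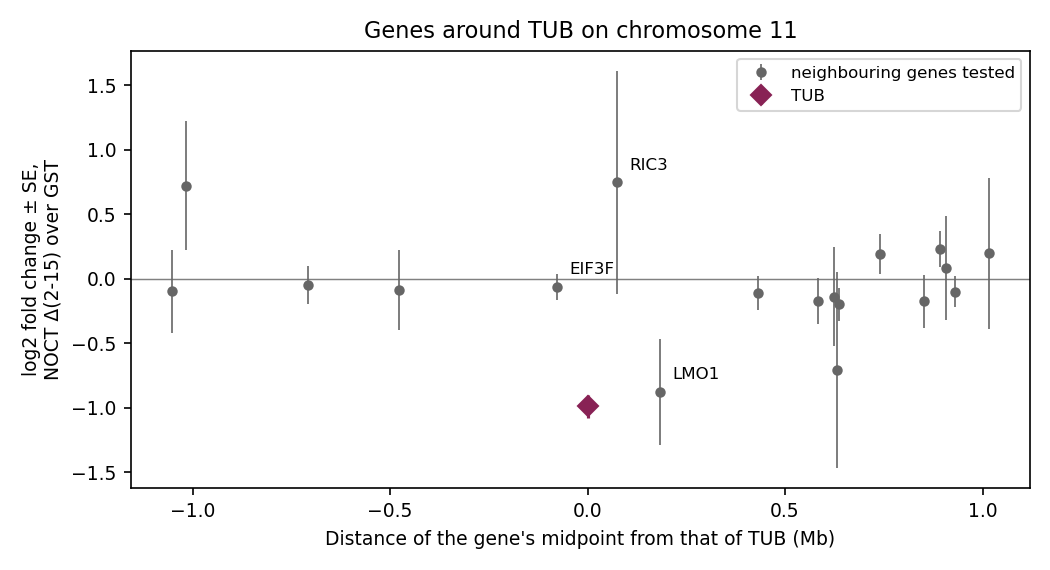
Log2 fold change with its standard error (y axis, NOCT over GST lines) of TUB and of the 18 genes tested within 1 Mb, by distance of the midpoints (x axis, Mb). TUB lies at -0.99, its neighbour EIF3F at -0.06 and its neighbour RIC3 at 0.75. LMO1, at low counts, lies at -0.87.

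Genes with a pattern like that of TUB over the 6 lines were ranked by the distance between mean-centred log2 CPM profiles, among 14925 genes that averaged 1 CPM or more. The 5 nearest lay on 5 different chromosomes, none of them chromosome 11, and their GST and NOCT lines did not overlap, the NOCT lines being lower. DCLK2, a doublecortin-like kinase gene, was the nearest (distance 0.254 in log2 units, Pearson's r 0.989 over 6 lines). DCLK2 had 18.7, 16.1 and 18.3 CPM in GST lines 2, 8 and 9 and 10.05, 9.68 and 10.08 CPM in NOCT lines 4, 11 and 12. It was followed by TMEM132E (distance 0.279, r 0.98), GFPT2, an enzyme of the hexosamine pathway (0.322, r 0.97), IRS2, an adaptor of the insulin receptor (0.337, r 0.96), and NAV3, a neuron navigator gene (0.342, r 0.96). Their log2 fold changes were -0.83, -1.003, -0.89 and -0.99, against -0.83 for DCLK2. Since TUB was chosen for a difference between the groups, genes near it differ between the groups by construction, and the correlations are descriptions over libraries that share that split.

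Partners of the family were read from 9 lists with 88 genes in all, of which 74 were tested. Of these, 0 passed in edgeR or limma voom and 3 passed in DESeq2, beside 0.0579%, 0.0927% (0.0290% higher, 0.0637% lower) and 2.94% (1.57% higher, 1.37% lower) of all genes in these tests. An unadjusted p under 0.05 was found for 10 of the 74, beside 13.9% of all genes. Groups were apart in 16 of the 74, beside 20.0% of all genes. The directions below are those of the fit of all 6 lines with TMM scaling, and some medians changed sign in other fits. The median of TULP3 cargoes was 0.0517 with the level of neighbouring genes removed and 0.0205 under a stricter count filter. That of SOCS-box genes was 0.0080 with library totals and 0.0442 on log2(TPM + 1). Scramblase genes had 0.0554 on log2(TPM + 1). With single lines left out, the medians of IFT-B, phagocytosis, TULP3 cargo and scramblase genes also changed sign. Under spike-in totals, which raised the median of all genes to 0.15, the medians of IFT-A (0.0157), TULP3 cargoes (0.0483), Gq and PIP2 (0.0131), SOCS-box (0.11) and scramblase genes (0.0832) turned to above 0.

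Hedgehog genes, whose pathway TULP3 restrains at the cilium, were the list with the most negative median. Of the 13 tested, all had a fold change below 0 in the fit of all 6 lines with TMM scaling, with a median of -0.35. Over all genes 49.3% were lower. Under spike-in totals 10 of the 13 were below 0, with a median of -0.20, and on log2(TPM + 1) 11 were. With TMM, 12 of 14 were lower without GST line 8 or without NOCT line 12, and 11 of 14 without NOCT line 11. Relative to the median of all genes, the hedgehog median was -0.35 under TMM scaling of all 6 lines and under spike-in totals. Without NOCT line 4 the median was -0.24. In edgeR 0 passed over all genes, and 5 had an unadjusted p under 0.05, all lower (beside 6.52% of all genes). GLI2, a transcription factor that carries the hedgehog signal, had 25.2, 25.4 and 27.1 CPM in GST lines 2, 8 and 9 and 13.03, 17.2 and 15.1 CPM in NOCT lines 4, 11 and 12, with no overlap. On the log2 scale GLI2 differed by -0.78 (standard error 0.139, edgeR adjusted p 0.0987). HHIP, which binds hedgehog ligands and is also a target of the pathway, had 3.69, 3.94 and 4.32 CPM in the GST lines and 1.77, 2.02 and 0.752 CPM in the NOCT lines. Its groups were apart too, at -1.39 on the log2 scale (edgeR adjusted p 0.187). Over all genes, 9.54% had groups apart with the NOCT lines lower. DESeq2 called both GLI2 (adjusted p 2.8e-04) and HHIP (0.0186), beside 1.37% of all genes called lower by DESeq2. So did edgeR without NOCT line 12 (adjusted p 0.0278 and 0.0444), a fit that called 970 of 17882 genes, 407 of them lower. With any other single line left out, edgeR called no hedgehog gene. GLI1, a readout of the pathway, had 1.96 to 2.78 CPM in GST lines and 1.75 to 2.47 CPM in NOCT lines, which overlapped (log2 fold change -0.0656, edgeR adjusted p 0.934). PTCH1 and SMO, of the same list and at higher levels, stood at -0.43 each on the log2 scale (edgeR adjusted p 0.378 and 0.196). Of the ligand genes SHH, IHH and DHH, none had enough counts for the test, with 54, 34 and 15 counts over the 6 libraries.

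The lists closest to TULP3 held no gene that passed. The IFT-A complex, its direct partner, had 4 of 6 genes lower and 2 higher, with a median of -0.13 and 1 gene at an unadjusted p under 0.05. That gene was IFT140, at 35.8 ± 7.92 CPM over the GST lines and 26.0 ± 1.05 CPM over the NOCT lines (SD of 3; log2 fold change -0.46, edgeR adjusted p 0.2702). Next by p was WDR35 at -0.25 (edgeR adjusted p 0.565). Without NOCT line 4 the IFT-A median was -0.0442. The IFT-B complex had a median of 0.08, with 13 of 17 genes higher, and a median of -0.0035 without NOCT line 11 and 0.0216 without GST line 9. Its genes of smallest p were IFT27 at 0.25 and TRAF3IP1 at -0.24 (edgeR adjusted p 0.389 and 0.3999). The BBSome, a coat that moves ciliary membrane proteins, had 5 of 9 genes higher and a median of 0.04. TTC8 and BBS7, both subunits of it, stood at 0.39 and -0.21 (edgeR adjusted p 0.402 and 0.431). Of 11 cargoes that depend on TULP3, 7 were tested, with 3 higher and 4 lower and a median of -0.10. GPR161, a receptor that TULP3 carries into the cilium and that holds hedgehog signalling off, stood at 0.14 (log2, edgeR adjusted p 0.702). INPP5E, the ciliary phosphoinositide phosphatase, had -0.35 and PKD1, a polycystin, -0.29 (edgeR adjusted p 0.369 and 0.377). SSTR3, another such receptor, had 0 counts in all 6 libraries.

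The lists around TUB and TULP4 were mixed. The Gq and PIP2 genes, which set the lipid that TUB binds and release it, had 7 of 9 genes lower and a median of -0.13, and PLCB3, a phospholipase C, was the one with an unadjusted p under 0.05 (log2 fold change -0.23, edgeR adjusted p 0.347). GNAQ, the Gq alpha subunit, stood at -0.27 (edgeR adjusted p 0.455). Receptors and bridging ligands of phagocytosis, a process in which TUB and TULP1 were reported as ligands of MERTK, had 3 of 5 genes higher and a median of 0.10. That median was 0.36 without NOCT line 12 and 0.25 without GST line 9, but over 6 genes, since AXL then had enough counts. AXL had 0.211, 0.0464 and 0.0491 CPM in GST lines 2, 8 and 9 and 1.49, 0.672 and 0.201 CPM in NOCT lines 4, 11 and 12, which overlapped. LGALS3, a galectin of this list, had 5.64, 5.61 and 4.27 CPM in GST lines 2, 8 and 9 and 10.8, 10.9 and 9.98 CPM in NOCT lines 4, 11 and 12, with no overlap. Over all genes, 10.5% had groups apart with the NOCT lines higher. On the log2 scale LGALS3 differed by 1.03 (standard error 0.181, edgeR adjusted p 0.0962), and DESeq2 called it (adjusted p 2.2e-04). PROS1, a bridging ligand, stood at 0.39 (edgeR adjusted p 0.3595). The 2 lower genes of this list were MERTK at -0.47 and GAS6 at -0.35 (edgeR adjusted p 0.459 and 0.653). Genes of the SOCS-box ubiquitin ligases, which the SOCS box of TULP4 would join, had 5 of 6 lower with a median of -0.04. ELOB, an elongin subunit, had the smallest p there (log2 fold change -0.43, edgeR adjusted p 0.238), followed by RBX1 at 0.23 (edgeR adjusted p 0.423). Of the phospholipid scramblases, which share the fold of the tubby domain, PLSCR1 had 0.19 and PLSCR4 -0.32 (edgeR adjusted p 0.582 and 0.592), and the other 3 had too few counts.

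**Figure D5:**
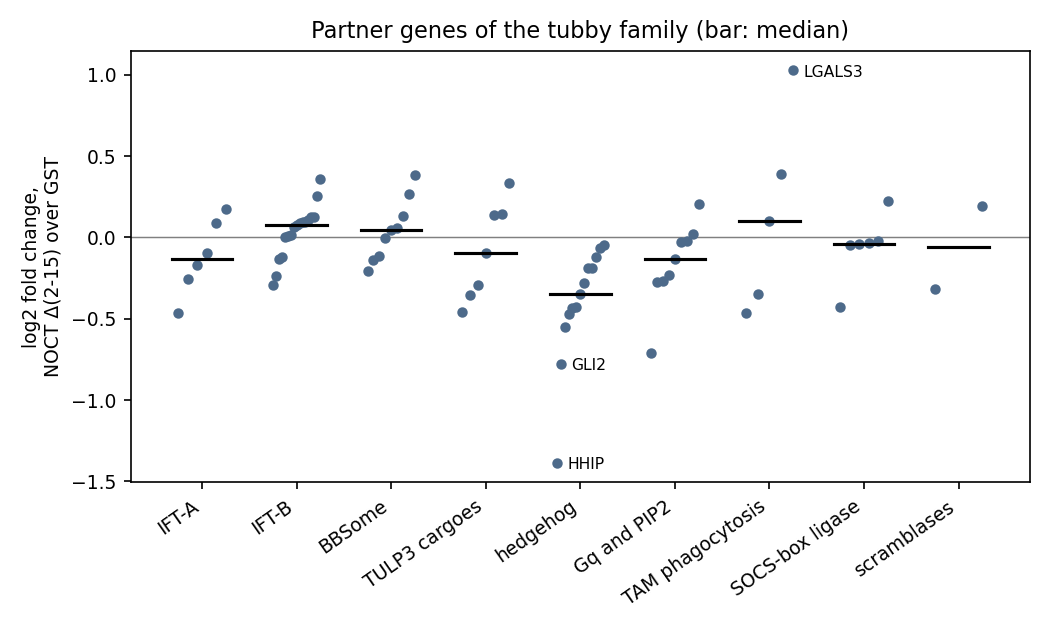
Log2 fold change (y axis, NOCT over GST lines) of each tested gene in 9 lists of tubby family partners (x axis; points: genes, bars: medians). Under the TMM scaling drawn, all 13 hedgehog genes lie below 0 with a median of -0.35 and the medians of the other lists lie between -0.13 and 0.10, whereas under spike-in totals 10 of the 13 lie below 0 and 5 of the other medians turn to above 0.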

How the data were processed

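RNA was measured in 6 libraries, 1 per clonal line. Per gene, the authors deposited raw read counts and TPM, which the authors scaled by gene length. The authors' deposited DESeq2 table gives a mean normalised signal, a shrunken log2 fold change, a test score and a p-value. The submitters' processing notes name STAR 2.5.2b, HTSeq 0.6.1p1, DESeq2 1.16.1 and GRCh38. The annotation release is not given in the sources used here, so coordinates came from GENCODE release 29 on GRCh38. In each file 5 rows that name no gene were left out: reads without a feature were 26.5% to 30.6% of a file, ambiguous reads 2.02% to 2.41% and reads not uniquely aligned 13.3% to 14.6%.

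Genes kept by filterByExpr were compared with edgeR 4.0.16 (quasi-likelihood test, TMM, Benjamini-Hochberg over 17261 genes, threshold 0.05) in R 4.3.3. The code was also run on simulated counts in which no line stood apart from its group, and nothing is read from that run. CPM are scaled by TMM, and standard errors come from the F statistic. Alternatives were DESeq2 1.42.0, limma 3.58.1 (voom, log2(TPM + 1), log2(TPM + 0.1)), other scalings and filters, an offset of up to 50 neighbours on each side, and leaving out each line. Counts were fitted with 1 term, the group. Named genes were the members, up to 2 genes of smallest p in each list, the 5 genes nearest to TUB, and genes overlapping or next to a member. GLI1, PTCH1, SMO, the ligand genes SHH, IHH and DHH, GPR161, SSTR3, MERTK, GAS6, AXL and LMO1 were named after their values were seen. PAX2, KRT8, KRT18, VIM, NEFL, NPY, COL1A1 and COL1A2 came from the marker lists. The members and lists were chosen with earlier results of these data known.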

Additional observations from a re-analysis of the deposited data

How the results depend on the processing

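TUB kept its direction in all 17 alternatives. It was chosen by this contrast in the same 6 libraries, with groups that did not overlap. That outcome was therefore largely fixed beforehand and is only a description. The log2 fold change of TUB was -0.94 with library totals, -0.84 with spike-in totals, -0.85 on log2(TPM + 1) and -0.90 on log2(TPM + 0.1), and -1.02 to -0.96 when single lines were left out. TULP3 reversed without GST line 2, to -0.0732 (edgeR adjusted p 0.798), within a range of -0.0732 to 0.12 over the lines left out. TULP4 kept a fold change above 0 and an adjusted p above 0.05 in each alternative. The number of genes called, 10, was 34 with library totals, 22 with spike-in totals, 888 without the low-count filter, 37 with the neighbour offset, 508 in DESeq2 and 16 in limma voom, and 0 to 970 when single lines were left out. Hedgehog genes called numbered 2 (GLI2 and HHIP) without the filter and in DESeq2, and 0 to 2 without single lines, and phagocytosis genes 2 without the filter (AXL and LGALS3), 1 in DESeq2 (LGALS3) and 0 to 3 without single lines. The other 7 lists had 0 calls in every setting. Without single lines, medians spanned -0.16 to 0.0152 for TULP3 cargoes, -0.15 to 0.0115 for scramblases, 0.0172 to 0.0598 for the BBSome and -0.0115 to 0.36 for phagocytosis genes. The phagocytosis genes tested then numbered 5 or 6. The median around TUB was 0.0247 in a window of 2 Mb. That around TULP1 was -0.12 in a window of 0.5 Mb, and -0.14 to 0.0392 without single lines, the lowest being without NOCT line 12. The cause of these shifts was not tested. TULP1 and TULP2 rest on 3 and 15 counts, were below the filter in edgeR, DESeq2 and limma, and were compared as CPM under the scalings, the filters and the lines left out only. No paired analysis was possible because the groups share no line number.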
